A study of Mus musculus with 3 samples.

Results

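Myokines and other secreted factors of muscle were described in cultured mouse myoblasts through the RNA of their genes, Erfe, Gal, Gdf15, Fndc5, Il6, Il15, Lif, Bdnf, Metrnl and Ostn. The genes were taken by symbol and were 10 of 35562 genes measured. The measurements are RNA-seq libraries of myoblast lines 66, 67 and 72, a single condition with n = 3. All carried the Dmdmdx; Pax7-nGFP genotype, that is the mdx mutation of dystrophin, corrected by CRISPR/Cas9, and a nuclear GFP reporter driven by Pax7. By the study's methods, edited iPSCs were placed in host blastocysts homozygous for Pax7 Cre/ERT2 and Rosa26 lsl-DTA, and satellite cells of the chimeras were purified by FACS and expanded as myoblasts. The study checked the edit in an iPSC clone and in derived myoblast lines, the DTA allele serves to remove host satellite cells after tamoxifen, and the labels give neither the tamoxifen status nor the age of the chimera behind a line. No untreated, unedited or differentiated cells were analysed here, so no value below is a response to anything.

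Myokines are proteins that muscle releases to act on itself or on distant organs, and many are known for rising with contraction, injury or metabolic stress. Most are made as precursors with a signal peptide, some are cut by proprotein convertases, and each acts only on cells that carry its receptor. Messenger RNA measures neither the cutting nor the release, and the cells here were cultured myoblasts, not contracting fibers.

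Levels are given in TPM (transcripts scaled to a library total of 1000000), which is corrected for transcript length and so lets genes be compared. Each line was 1 library of between 66972426 and 73274315 estimated counts, and 3 counts, taken as the one-sided 95% limit that a count of 0 allows, corresponded to between 0.0409 and 0.0448 CPM (counts scaled to the same total). Such limits and the count intervals below cover counting error only, since PCR copies without molecular identifiers are not independent molecules. A gene was called apart between lines where TPM + 1 of the highest line exceeded that of the lowest by more than 2-fold. There is no replicate within a line, so these ratios carry no p-value, and the smallest exact sign-flip p that 3 lines allow is 0.25. Whether the lines came from separate animals is not given, so SDs over lines may hold technical as well as biological spread. Markers of myoblasts were abundant in every line (Myod1 690.3 ± 107 TPM, Pax7 144 ± 9.02 TPM, SD, n = 3). They summed to 1977, 1902 and 1809 TPM in lines 66, 67 and 72. Markers of differentiated muscle were abundant too, and summed to 1003, 1484 and 1755 TPM in the same lines. Of the other cell types checked, fibroblast markers summed to between 1.95 and 14.5 TPM, of which Cd34 gave up to 13.8 TPM while Dpt and Lum were at 0. Immune markers summed to between 3.13 and 4.57 TPM, nearly all of it Cd68. Endothelial markers reached at most 1.81 TPM, neural and Schwann markers 2.0 TPM and erythroid markers 0.202 TPM, with Gata1, Hbb-bs and Alas2 at 0.

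The promoters of the 3 members with the largest ratios between lines, Gal, Gdf15 and Lif, are shown first, as the 250 bases before the start site in RefSeq (GRCm38.p6), 5′ to 3′ on the gene's strand. Capitals mark matches, on either strand, to the motifs searched: E-box (CANNTG), cAMP response element (TGACGTCA), C/EBP-ATF composite element (TTGCATCA), AP-1 site (TGANTCA) and TATA box (TATAAA).
Gal, chr19:3414545-3414794, minus strand: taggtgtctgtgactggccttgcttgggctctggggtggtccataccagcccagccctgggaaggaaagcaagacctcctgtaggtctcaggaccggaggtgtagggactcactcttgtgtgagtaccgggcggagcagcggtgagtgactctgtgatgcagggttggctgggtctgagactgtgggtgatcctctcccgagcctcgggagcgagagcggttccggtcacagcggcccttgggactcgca
Gdf15, chr8:70632457-70632706, minus strand: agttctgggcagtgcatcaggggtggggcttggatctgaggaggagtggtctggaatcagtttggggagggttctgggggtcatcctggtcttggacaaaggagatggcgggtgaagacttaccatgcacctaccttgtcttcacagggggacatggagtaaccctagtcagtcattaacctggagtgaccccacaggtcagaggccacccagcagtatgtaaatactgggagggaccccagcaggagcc
Lif, chr11:4257318-4257567, plus strand: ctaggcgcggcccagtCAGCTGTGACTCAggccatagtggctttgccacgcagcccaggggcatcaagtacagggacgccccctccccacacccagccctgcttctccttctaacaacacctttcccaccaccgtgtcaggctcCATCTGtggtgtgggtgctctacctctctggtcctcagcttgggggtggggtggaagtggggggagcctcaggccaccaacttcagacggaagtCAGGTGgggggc

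Neither the Gal nor the Gdf15 window held any of these motifs. The Lif window held 3 E-boxes, with first bases 234, 106 and 12 bases before the start, the first of them with the GC centre (CAGCTG) and directly followed, with no shared base, by an AP-1 match at 228 bases. E-boxes occurred in 66.2% of the 32851 promoters of the same length in the table, CAGCTG in 13.0% and AP-1 matches in 6.75%. A match of letters is not evidence of binding, and the lack of one says only that these letters are not in this window. Of the 10 genes, 8 had a promoter in the table; Il15 and Ostn had none. Erfe and Fndc5 windows held no match either, the Metrnl window, at the start of a transcript with 23.1% to 30.3% of the gene's counts and 883 bases from that of the main one, held 1 CAGCTG, and the Il6 window held 1 E-box and 1 AP-1 match. A second Gdf15 start, 361 bases downstream, held 3 E-boxes, but the transcript that begins there carried only 2.33% to 4.21% of the gene's counts. No RefSeq start listed for Bdnf lies within 100 bases of the start of the transcript assigned most of its counts.

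Gal RNA was by far the most abundant of the 10, 6 genes were detected at 1 TPM or more in every line, and Il6 and Ostn were at the limit of counting. The 6 were Gal, Fndc5, Gdf15, Metrnl, Bdnf and Erfe, and only Gal and Fndc5 exceeded 10 TPM in all lines. Over all 35562 genes, 33.8% had at least 1 TPM in every line, 22.6% at least 10 TPM and 40.4% had at most 3 counts in every line. Ordered by mean, the genes ran Gal, Fndc5, Gdf15, Metrnl, Bdnf, Erfe, Lif, Il15, Il6 and Ostn. The ranges over the 3 lines did not overlap for 5 of the 9 neighbouring pairs. These were Gal and Fndc5, Bdnf and Erfe, Erfe and Lif, Il15 and Il6, and Il6 and Ostn. The last pair were both at 3 counts or fewer, and in line 72 Ostn had more counts (2) than Il6 (1). The order of Il6 and Ostn is thus not settled. Fndc5 and Gdf15, Gdf15 and Metrnl, Metrnl and Bdnf, and Lif and Il15 overlapped, so their order is not settled by these lines, although Metrnl was above Bdnf in each of the 3.

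**Figure D1:**
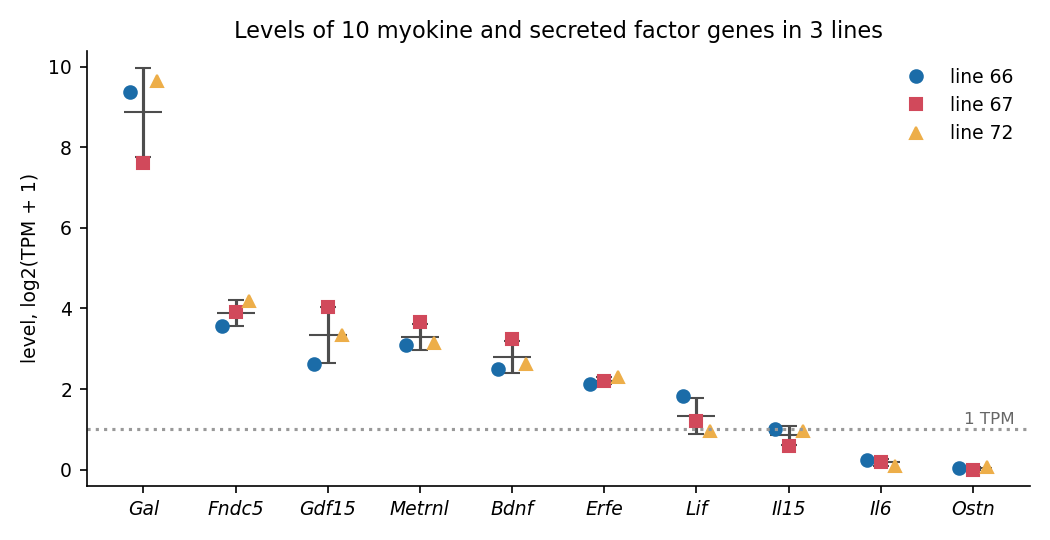
Level of each gene as log2(TPM + 1) in lines 66, 67 and 72 (symbols), with the mean and SD over the 3 lines (horizontal marks and bars); the dotted line is 1 TPM. Gal stands at 194 to 796 TPM, no other gene passes 17.1 TPM, and Il6 and Ostn lie near 0.

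Between lines, 7 of the 10 genes averaged at least 1 TPM, and 2 of these 7, Gal and Gdf15, were over 2-fold apart. Among all 12528 genes with such a mean, 508 (4.05%) were over 2-fold apart. The middle of the 7 genes by this measure was Bdnf, with a log2 difference of 0.73 between highest and lowest line on TPM + 1, where the median over the 12528 genes was 0.26 and the 95th percentile 0.92. Without line 67 the Bdnf difference was 0.11. The lines did not take 1 order. Gal, Fndc5 and Erfe were highest in line 72, Gdf15, Bdnf and Metrnl in line 67, and Lif in line 66. In bulk RNA, fewer cells that express a gene and less RNA per cell cannot be told apart.

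**Figure D2:**
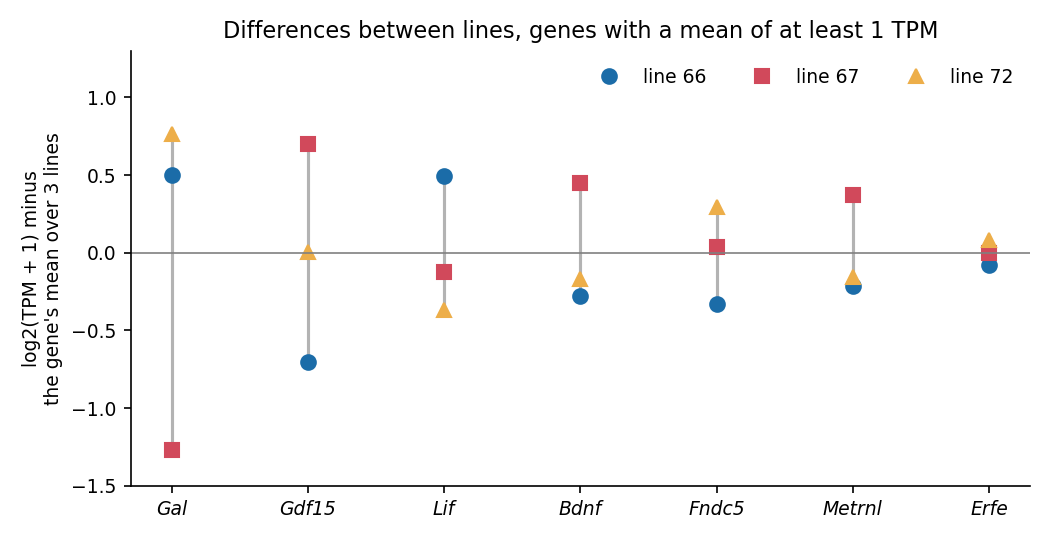
For the 7 genes averaging at least 1 TPM, log2(TPM + 1) in each line minus the gene's own mean over the 3 lines; the grey bar joins the lowest and highest line. Line 67 is the lowest for Gal, and the highest for Gdf15, Bdnf and Metrnl; the 3 lines nearly coincide for Erfe.

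Gal (ENSMUSG00000024907.7; chromosome 19, 3409915 to 3414544, minus strand, GRCm38) encodes galanin, a neuropeptide known mainly from neurons and endocrine cells. Its level was 663 TPM in line 66, 194 TPM in line 67 and 796 TPM in line 72, with 20123, 5416 and 22378 counts. Line 67 thus stood apart below lines 66 and 72, which were close to each other. The mean was 551 ± 316 TPM (SD, n = 3), above 99.0% of the 25510 genes detected in any line. Line 72 exceeded line 67 by 4.09-fold on TPM + 1 and by 3.94-fold on CPM (95% exact binomial interval 3.82 to 4.06). Its ratio on TPM + 1 was larger than that of 99.4% of the 12528 genes. Gal was the only one of the 7 genes to lie over 2-fold lower in line 67 than in both other lines, a pattern of 48 of the 12528 genes (0.383%). The genes of chromosome 19 as a whole did not share it: their median log2 difference in line 67 from the mean of the other lines was 0.03, against −1.88 for Gal. Neural and Schwann markers summed to 2.0, 1.67 and 1.75 TPM in lines 66, 67 and 72, with Sox10 at 1 count or fewer and S100b at 2 or fewer. Gal made up 95% of the summed TPM of the 10 genes in line 66, 77.8% in line 67 and 94.6% in line 72, so any sum over them mostly restates Gal.

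Nearly all Gal counts came from 1 annotated transcript. Gal-202, which begins at the start site whose promoter is printed above, carried 92.5%, 94.5% and 90.0% of the gene's counts in lines 66, 67 and 72, and Gal-201 the rest. The split was alike in the 3 lines, also in line 67. None of the 31-base words of Gal occurs in another listed gene, so its counts are not shared. The other ligands and all receptors of this peptide family were low: Galp was at 0, Spx (spexin, which also acts through galanin receptors) had 1.10 ± 0.133 TPM, Galr1 had 0, 0 and 2 counts, Galr2 none and Galr3 at most 2.06 counts.

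Gdf15 (ENSMUSG00000038508.7; chromosome 8, 70629393 to 70632456, minus strand) encodes a circulating TGF-β family hormone that rises with cell stress and lowers appetite through the brainstem receptor GFRAL and its partner RET. It had 5.20 TPM in line 66, 15.4 TPM in line 67 and 9.15 TPM in line 72, from 392, 1085 and 649 counts (mean 9.93 ± 5.17 TPM, SD, n = 3). The 3 lines were evenly spread, with line 67 highest and line 66 lowest. The ratio of line 67 to line 66 was 2.65 on TPM + 1 and 3.03 on CPM (95% interval 2.70 to 3.41), larger than for 98.4% of the genes tested. The transcript that begins at the start site whose promoter is printed above carried between 95.8% and 97.7% of the counts. Gfral was at 0 in every line, and Ret had 0.389 ± 0.160 TPM.

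Gdf15 is a known target of the integrated stress response, whose genes were read beside it. All 6 of the list were above 1 TPM in every line and none was over 2-fold apart between lines. Atf4, the factor at the centre of the response, had 287, 342 and 333 TPM in lines 66, 67 and 72, and Atf3, the lowest of the list by mean, had 6.88, 4.91 and 5.52 TPM. Atf4, Trib3 and Chac1 were highest in line 67, as Gdf15 was. Atf3 and Ddit3 were lowest there, and Asns was highest in line 72. The list summed to 477, 544 and 542 TPM. Their part in the level of Gdf15 was not tested.

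Fndc5 (ENSMUSG00000001334.9; chromosome 4, 129136999 to 129144593, plus strand) encodes the membrane precursor from which irisin is released. It had 10.7, 14.2 and 17.1 TPM in lines 66, 67 and 72, from 1543, 1877 and 2343 counts of its single listed transcript (mean 14.0 ± 3.20 TPM, SD, n = 3). Line 66 was lowest and line 72 highest, 1.54-fold apart on TPM + 1, which is within the 2-fold limit. The 6 markers of differentiated muscle, Myog, Mymk, Myh3, Acta1, Ckm and Tnnt3, were each lowest in line 66 too, and summed to 1003, 1484 and 1755 TPM in lines 66, 67 and 72. Myog, the transcription factor of early differentiation, had 168, 222 and 310 TPM. Markers of myoblasts took no common order: Myod1, the highest of them, had 791, 702 and 579 TPM, and Pax7 136, 143 and 154 TPM. The part of differentiation in the level of Fndc5 was not tested, and 3 lines are too few for a correlation.

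**Figure D3:**
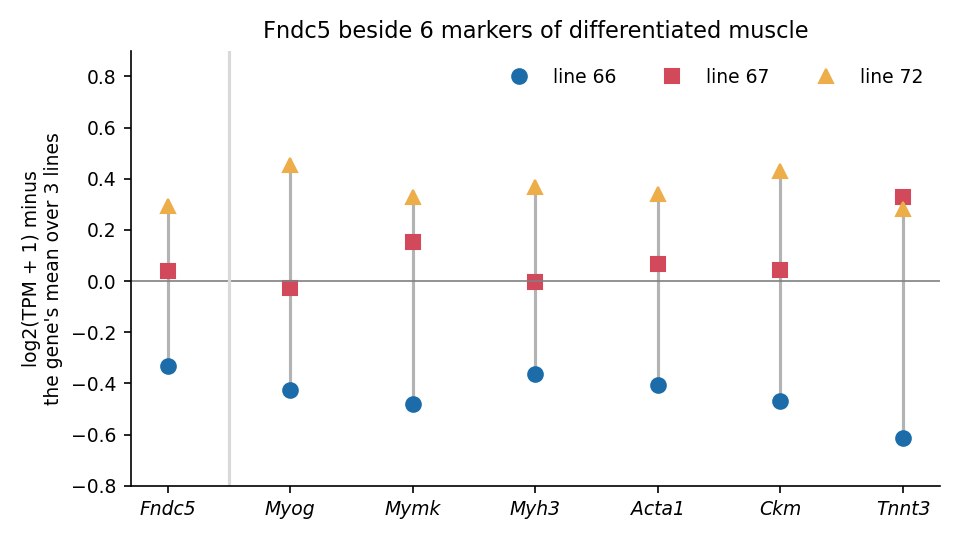
Fndc5 and 6 markers of differentiated muscle, as log2(TPM + 1) in each line minus the gene's mean over the 3 lines; grey bars join lowest and highest line. Line 66 is lowest for all 7 genes, and line 72 is highest for Fndc5 and for each marker but Tnnt3.

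Relatives of Fndc5 and the proposed irisin receptor were also present. Fndc3a, Fndc3b and Fndc4, which share the fibronectin type III fold, had 35.6 ± 3.12, 27.1 ± 3.24 and 30.1 ± 5.05 TPM, each above Fndc5 in all 3 lines. The integrin subunits Itgav and Itgb5, reported to bind irisin, had 57.9 ± 7.63 TPM and 11.2 ± 4.15 TPM.

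Metrnl (ENSMUSG00000039208.15; chromosome 11, 121701544 to 121716306, plus strand) encodes meteorin-like, a secreted protein of muscle and fat linked to thermogenesis. Its levels were 7.47, 11.7 and 7.79 TPM in lines 66, 67 and 72, from 378, 545 and 376 counts (mean 8.99 ± 2.35 TPM, SD, n = 3). Lines 66 and 72 nearly coincided and line 67 lay above both. The highest line exceeded the lowest by 1.58-fold on CPM (95% interval 1.38 to 1.80). Genes of chromosome 11 had a median log2 difference of 0.31 in line 66 and −0.17 in line 67 from the mean of the other lines (996 genes), so line 67 was 0.58 above the other lines for Metrnl and 0.75 above its chromosome's median. Metrnl-202 carried 76.9%, 76.7% and 69.7% of the counts. Its homolog Metrn had 18.3 ± 1.34 TPM, above Metrnl in every line, and Kit, a reported receptor of meteorin-like, had 3, 2 and 0 counts.

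Bdnf (ENSMUSG00000048482.14; chromosome 2, 109674700 to 109727007, plus strand) encodes brain-derived neurotrophic factor, which in muscle has been described in satellite cells. It had 4.69, 8.43 and 5.14 TPM in lines 66, 67 and 72, from 739, 1204 and 748 counts (mean 6.09 ± 2.05 TPM, SD, n = 3). As with Metrnl, line 67 lay above 2 lines that were close to each other, 1.66-fold apart at most on TPM + 1. Bdnf has 11 listed transcripts, which differ in their first exon and join a shared coding exon. Only Bdnf-205, which begins at 109693563, was assigned many counts, with 739, 1120 and 721, or 100%, 93.0% and 96.4% of the gene. Bdnf-209 had 49.7 counts in line 67 and 0 in the others, and Bdnf-204 had 21.4 and 20.9 counts in lines 67 and 72. In these cells 1 of the annotated first exons of Bdnf thus carried nearly all counts. An antisense gene, Gm45346, overlaps Bdnf and had at most 2 counts.

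Other genes of the neurotrophin system were read in the same way. The ligands Ntf3 and Ntf5 were low, with at most 4 counts and 0.542 ± 0.264 TPM. Ntrk2, the signalling receptor of BDNF, had at most 6.95 counts. Ntrk3 had 0.0916 ± 0.0296 TPM. Ngfr, the shared low-affinity receptor, had 0.345 ± 0.163 TPM. Sort1, sortilin, which binds the precursors of neurotrophins and sorts them within the cell, had 9.52 ± 1.17 TPM.

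Erfe (ENSMUSG00000047443.14; chromosome 1, 91366430 to 91374217, plus strand) encodes erythroferrone, which erythroblasts release to lower hepcidin and which was also described as myonectin. It was the steadiest of the 7 genes, with 3.39, 3.61 and 3.90 TPM in lines 66, 67 and 72 from 365, 288 and 413 counts (mean 3.63 ± 0.256 TPM, SD, n = 3). Its ratio between lines, 1.12 on TPM + 1, exceeded that of 25.2% of the genes tested. On counts not corrected for length the log2 difference was larger, 0.35 in place of 0.16 with either TMM scaling or DESeq2's size factors, and by CPM line 67 was the lowest (4.98, 4.30 and 5.88 CPM in lines 66, 67 and 72), while line 66 was the lowest by TPM. Erfe-201 carried 91.8%, 84.7% and 93.0% of the counts. Erfe overlaps Ilkap on the opposite strand, which had between 8316 and 9191 counts. Of the 31-base words of Erfe, 88.4% occur in no other gene, but the strand setting of the counting is not given in the sources used here, so reads of the overlap cannot be assigned with certainty. Erythroid markers summed to at most 0.202 TPM in any line, below Erfe in every line.

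Erfe belongs to the C1q/TNF-related family of secreted proteins, of which 3 of 10 listed relatives had at least 1 TPM in every line. C1qtnf12 was the highest by mean at 34.7 ± 1.72 TPM, although C1qtnf3 lay above it in line 72. C1qtnf9 was the lowest, with 0, 0 and 2 counts. C1qtnf3 was the only relative over 2-fold apart between lines and is named for that after its values were seen, with 14.3, 18.6 and 41.8 TPM.

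Lif (ENSMUSG00000034394.14; chromosome 11, 4257557 to 4272514, plus strand) encodes leukemia inhibitory factor, a cytokine of the IL-6 family that promotes myoblast proliferation. It had 2.54, 1.31 and 0.948 TPM in lines 66, 67 and 72, from 430, 197 and 183 counts (mean 1.60 ± 0.838 TPM, SD, n = 3). Line 66 stood above lines 67 and 72. The ratio was 1.82 on TPM + 1, below the 2-fold limit, but 2.69 on TPM without the added 1 and 2.25 on CPM (95% interval 1.89 to 2.69), so the call depends on the scale at this low level. Lif shares chromosome 11 with Metrnl. In line 66 it was 0.79 higher on the log2 scale than the mean of the other lines, and 0.48 higher than the median of its chromosome, which was itself shifted by 0.31.

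The listed transcripts of Lif also differed between lines. Lif-202, which begins near the promoter printed above, had 418, 111 and 62.4 counts in lines 66, 67 and 72, or 97.2%, 56.3% and 34.1% of the gene. Lif-201, which begins inside the gene at 4267095, had 1.83, 81.2 and 120 counts, or 0.426%, 41.2% and 65.4%. The share of Lif-201 was thus larger in the lines where the gene's total was lower. No 31-base word of Lif-201 is absent from the other Lif transcripts, whereas Lif-202 has 249 words of its own, so the split was estimated by the program and not counted from reads unique to each.

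**Figure D4:**
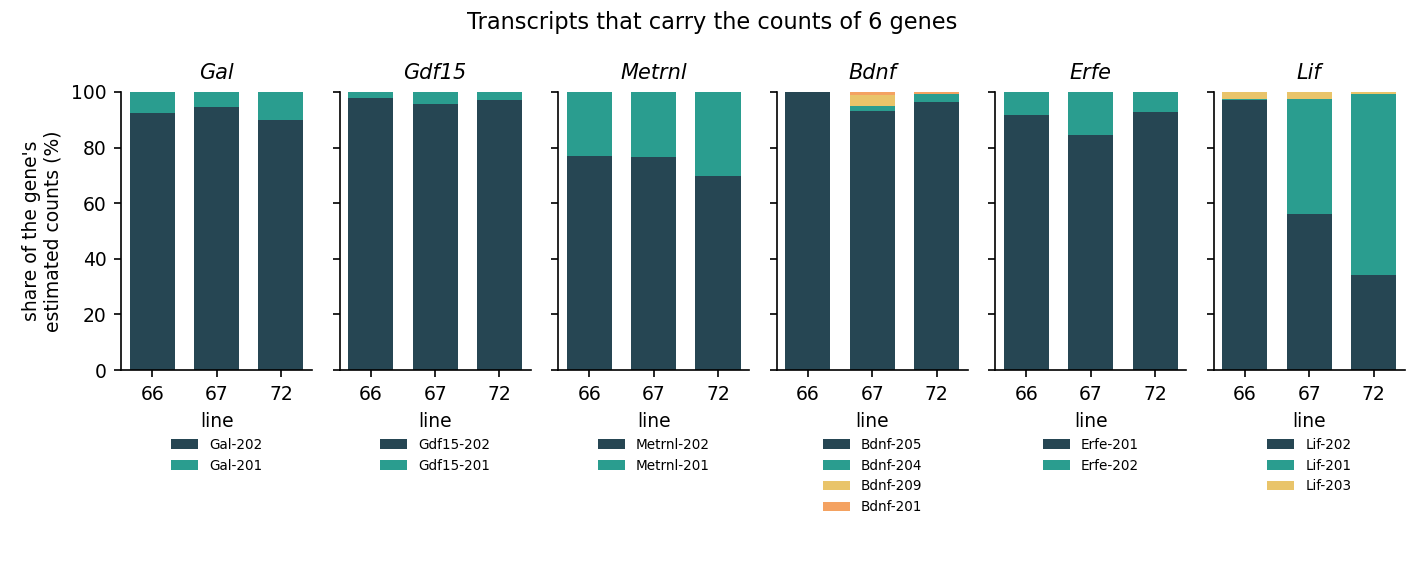
Share (%) of a gene's estimated counts carried by each annotated transcript in lines 66, 67 and 72, for 6 genes; transcripts that stay below 0.5% in all lines are not drawn. One transcript carries most counts of Gal, Gdf15, Bdnf, Erfe and Metrnl in all lines, while Lif-202 carries 97.2% of the Lif counts in line 66 and 34.1% in line 72.

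Il6 (ENSMUSG00000025746.11; chromosome 5, 30013114 to 30019981, plus strand), the first cytokine to be called a myokine, was at the limit of counting. It had 3, 3 and 1 counts in lines 66, 67 and 72, or 0.186, 0.139 and 0.0661 TPM, too few to compare the lines. The receptor that LIF and IL-6 share was abundant: Il6st, which encodes gp130, had 46.2 ± 4.10 TPM. Lifr had 5.58 ± 0.877 TPM and Il6ra 1.04 ± 0.231 TPM. Among the other receptors of the family, Il11ra1 had 6.59 ± 1.65 TPM, Cntfr 1.55 ± 0.649 TPM and Osmr 1.31 ± 0.618 TPM.

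Of the other ligands of gp130, Clcf1 and Ctf1 exceeded Lif in every line. Clcf1, cardiotrophin-like cytokine factor 1, had 32.2 ± 4.18 TPM, Ctf1, cardiotrophin 1, had 15.8 ± 2.44 TPM, and Cntf 1.42 ± 0.210 TPM. Il11 had 3.88, 1.16 and 0.351 TPM in lines 66, 67 and 72, and was 3.61-fold apart on TPM + 1. Osm had at most 1 count and Il27 none.

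Il15 (ENSMUSG00000031712.10; chromosome 8, 82331632 to 82403222, minus strand) encodes interleukin 15, a lymphocyte growth factor that is also made by muscle. It had 0.996, 0.502 and 0.953 TPM in lines 66, 67 and 72, from only 20, 12 and 20 counts (mean 0.817 ± 0.274 TPM, SD, n = 3). The CPM ratio of line 66 to line 67 was 1.52, with a 95% interval of 0.709 to 3.42 that includes 1. The few counts were split between several of its 10 listed transcripts, some of them not coding for protein. Il15ra, which presents the cytokine to other cells, had 2.55 ± 0.461 TPM, while the signalling chains Il2rb and Il2rg had at most 6 counts and 0.665 ± 0.499 TPM.

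Ostn (ENSMUSG00000052276.8; chromosome 16, 27307489 to 27351212, plus strand) encodes osteocrin, or musclin, a peptide that binds the clearance receptor of natriuretic peptides. It had 1, 0 and 2 counts, which is not separable from absence at this depth. Of the natriuretic peptides themselves, Nppa was at 0, Nppb had 2 counts in each line and Nppc at most 1. Their receptors ranged more widely: Npr2 had 39.0 ± 1.52 TPM, Npr3, the clearance receptor, 0.955 ± 0.398 TPM, and Npr1 0.236 ± 0.0620 TPM.

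Across the 25 receptor genes of these ligands, 8 had at least 1 TPM in every line, 4 had a mean of at least 10 TPM, and 6 had at most 3 counts in every line. Over all genes the shares were 33.8% at 1 TPM and 40.4% at no more than 3 counts. The 8 were Il6st, Lifr, Il11ra1, Il15ra, Sort1, Npr2, Itgav and Itgb5. Those at the limit of counting included Galr1, Galr2, Galr3, Gfral and Kit. Gal, Gdf15 and Metrnl thus had no listed receptor gene at 1 TPM in the same cells. Lif, at 1.60 TPM, had both of its receptor chains above it. No member was tested for an effect on these cells.

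**Figure D5:**
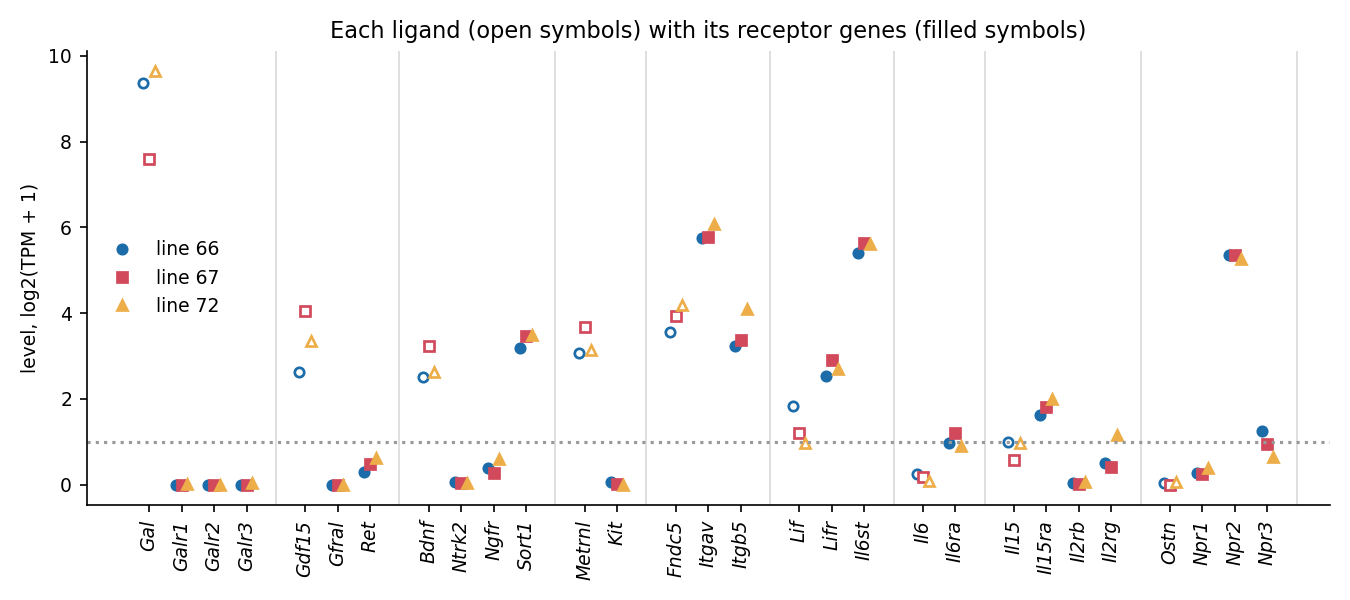
Levels as log2(TPM + 1) of ligands (open symbols) and of receptor genes to their right (filled symbols) in lines 66, 67 and 72; the dotted line is 1 TPM. Receptors of Gal, Gdf15 and Metrnl lie near 0, and Il6st, Itgav and Npr2 lie at 37.2 TPM or more in every line.

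Proprotein convertases, which cut many secreted precursors, were led by Furin at 107 ± 4.79 TPM, and 4 of 6 had at least 1 TPM in every line. Pcsk5 was the lowest at 0.0648 ± 0.0478 TPM. Pcsk1, which processes prohormones and neuropeptides in secretory granules, was the only one over 2-fold apart and is named for that after its values were seen, with 16.5, 2.32 and 0.679 TPM in lines 66, 67 and 72. Any relation of Pcsk1 to the level of Gal was not tested. Of 18 other secreted factors, 10 had at least 1 TPM in every line. Csf1, macrophage colony-stimulating factor, was the highest by mean at 481 ± 26.5 TPM, although Sparc, at 472 ± 74.6 TPM, lay above it in lines 66 and 72. Csf1 was of the size of Gal but with an SD far smaller, and Il10 was at 0. Fgf21, an endocrine factor of metabolic stress named after its values were seen, was the only one of the 18 over 2-fold apart, with 2.14, 5.24 and 6.76 TPM.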

How the data were processed

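RNA of 3 myoblast lines was isolated, enriched for poly-A and made into stranded libraries. The authors deposited, for each of 121798 transcripts, an estimated count that need not be whole and is not normalized. The authors also deposited TPM, the estimated count divided by effective length and scaled to 1000000 per library. The submitters' processing notes name bcl2fastq 2.20, fastp 0.20, kallisto 0.46.1 and GRCm39, and the transcript annotation and strand setting are not given in the sources used here.

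Transcripts were matched by identifier to GENCODE M21 (GRCm38), whose symbols and coordinates were used, and 99.1% matched. The 1112 others, with 0.493% to 0.535% of counts, were left out. Estimated counts and TPM were summed per gene. Totals were 73274315, 66972426 and 70272367 counts in lines 66, 67 and 72, and the lines correlated with r between 0.982 and 0.988 across 12528 genes, which are not independent replicates. A check for a library listed under more than 1 line found none (chi-square per degree of freedom 68.6 or more), and says nothing of how far replicates of a line would differ.

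Lines were grouped by the labels as 1 condition, so no test between groups was run. Values are means ± SD over lines with 95% exact Poisson or binomial counting intervals. The members and lists were chosen with earlier results of these data known. All members were named, with every ligand or receptor that stands beside a member and the highest and lowest gene of larger lists, and others only as stated. Some genes of the neurotrophin list are not reported here. Alternatives were CPM, a pseudocount of 0.1, thresholds of 0.5 and 10 TPM, folds of 1.5 and 4, other filters, leaving out each line, and edgeR's TMM scaling or DESeq2's size factors on estimated counts rounded to whole numbers. The calls were tested on simulated data. Promoters came from RefSeq (GRCm38.p6), and shared sequence was measured in 31-base words. The scaling factors were computed in R 4.3.3 (edgeR 4.0.16, DESeq2 1.42.0), and everything else in Python 3.11.15 with scipy 1.17.1, pandas 2.3.3, numpy 2.4.6 and, for plots, matplotlib 3.10.9.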

Additional observations from a re-analysis of the deposited data

How the results depend on the processing

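The count of genes detected depended on the threshold: 6 of the 10 reached 1 TPM in every line (33.8% of all genes), and 2 reached 10 TPM (22.6%). The count over 2-fold apart depended on the fold and on single lines. It was 2 (Gal and Gdf15), 5 at a fold of 1.5 (Gal, Gdf15, Fndc5, Lif and Bdnf, with 14.2% of the genes tested) and 1 at a fold of 4 (Gal, with 0.647%). Leaving out each line in turn gave between 0 and 2: none without line 67, Gal alone without line 66, and the same 2 genes without line 72. Without line 67 the log2 difference of Gal fell from 2.03 to 0.26, that of Gdf15 from 1.41 to 0.71, that of Bdnf from 0.73 to 0.11 and that of Metrnl from 0.58 to 0.05. Without line 66 that of Gdf15 fell to 0.70, that of Fndc5 from 0.63 to 0.26 and that of Lif from 0.86 to 0.24. Gal and Gdf15 were also the 2 genes called under DESeq2's size factors and under TMM, and a pseudocount of 0.1 added Lif (with 6.67% of the genes tested). Subtracting the median of each chromosome, chosen after the data were seen, moved Lif from 0.86 to 0.57 and Metrnl from 0.58 to 0.91. Over all genes, 508 were over 2-fold apart, 183 with a filter at a mean of 10 TPM, and 217 to 273 with 1 line left out.

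CPM in place of TPM kept 2 of 10 levels within 1 SD of the value reported, and a pseudocount of 0.1 kept 5. Of the 7 genes averaging at least 1 TPM, 6 had a ratio between lines within 1 SD of that reported under DESeq2's size factors and under TMM, all but Erfe, whose log2 difference was 0.35 in place of 0.16. With that pseudocount it was all but Lif, at 1.34 in place of 0.86. No paired analysis was possible because only 1 group of lines was measured. A line is 1 library, so technical and biological differences between lines cannot be told apart. Genes with few counts (Il15, Il6 and Ostn) cannot be compared at this depth.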
